A study of Mus musculus with 6 samples.

Results

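The comparison of 0.2% FBS with 2% HS was described in differentiating C2C12 cells to which no exosomes were added. Its members were 2 of the 6 libraries, 1 cultured in each medium, and the 10653 genes of 20950 table entries whose mean over both libraries was at least 1 FPKM (fragments per kilobase of transcript, scaled to the mapped reads of the library). C2C12 is an established mouse myoblast line. All cells were grown in DMEM with 10% FBS (fetal bovine serum) to a semi-confluent state, and the medium was then exchanged for DMEM with 0.2% FBS or with 2% HS (horse serum). The other 4 libraries were growing cells in 10% FBS, cells in 2% HS with exosomes precipitated from FBS, and replicates 1 and 2 of 0.2% FBS with such exosomes. RNA of whole cultures was sequenced from poly(A) libraries, and the time between the change of medium and the harvest was not given in the sources used here.

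Myoblasts divide in serum rich in mitogens. When serum is withdrawn they leave the cell cycle, switch on Myog (myogenin), fuse into myotubes and assemble sarcomeres from myosin, actin and their partner proteins. Both 0.2% FBS and 2% HS are used as differentiation media, yet they differ in the species the serum comes from and in its amount, and serum brings lipoproteins, hormones, retinoids, trace elements and growth factors. The question of the comparison was therefore which transcripts differed between the 2 ways of lowering serum. Serum species and serum amount changed together and cannot be told apart here. In bulk RNA, fewer cells of a type and less RNA per cell cannot be told apart either.

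Each medium had 1 library, so no difference between them had a replicate check. A gene is called higher or lower below when its log2(FPKM + 1) in 0.2% FBS minus that in 2% HS was past 1 in size, and every other value is given as a difference without a call. The pseudocount of 1 makes differences of genes at low FPKM smaller than their ratio. The 2 libraries of 0.2% FBS + exosome are the only replicated condition, and their difference (replicate 2 minus replicate 1) is given beside the results for comparison. The paper mentions exosomes from 2 batch preparations but does not assign them to libraries. The labels do not say whether the 2 libraries were separate cultures or shared 1 exosome preparation, so the pair may hold more or less than the spread between cultures. These 2 libraries stood apart in stress genes, with a median difference of −0.61 over 19 heat shock genes and of −0.67 over 19 genes of endoplasmic reticulum stress, and Hspa1b, an inducible HSP70, read 30.0 FPKM in replicate 1 and 5.39 in replicate 2. The deposited values hold no counts. From the step of low values, the depth was estimated at 38500000 reads for 2% HS and 36600000 for 0.2% FBS, against 33700000 to 39400000 over all 6 libraries. A transcript of 1 kb at 1 FPKM then rests on 38.5 and 36.6 reads, and counting alone gives it a standard error of 0.116 and 0.119 on the scale of log2(FPKM + 1).

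The 2 media gave close transcriptomes. In 0.2% FBS, 25 genes were higher (0.235% of those measured) and 31 were lower (0.291%). The median difference was −0.01, the median size of a difference was 0.107, and the middle of the distribution ran from −0.35 at the 5th percentile to 0.32 at the 95th. The replicate pair of 0.2% FBS + exosome differed by more than that. Its median size of a difference was 0.148 over 10731 genes, and 65 genes (0.606%) were past 1, of which 33 were higher and 32 lower in replicate 2. The count of genes past 1 between the media was therefore no larger than the count between 2 libraries of a single condition. Of all 10653 genes, 4399 (41.3%) differed more between the media than between the exosome replicates.

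**Figure D1:**
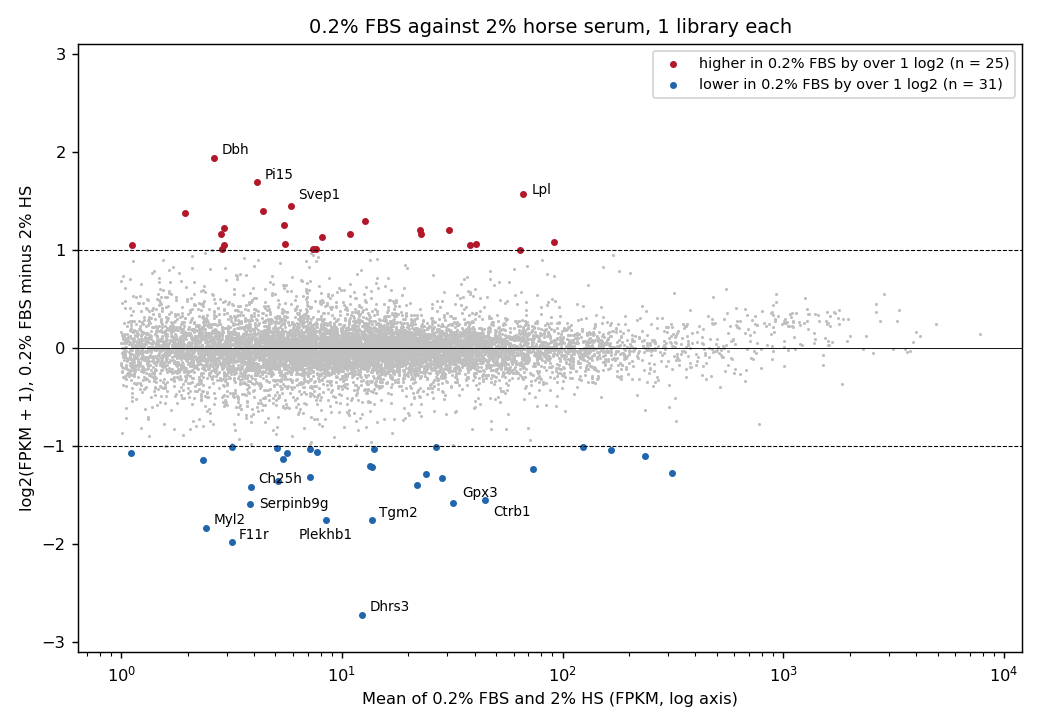
Difference in log2(FPKM + 1), 0.2% FBS minus 2% HS, against the mean FPKM of both libraries on a log axis, 1 point per gene for 10653 genes. Red points are the 25 genes higher in 0.2% FBS and blue points the 31 genes lower, and Dhrs3 at −2.72 lies farthest from 0.

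**Figure D2:**
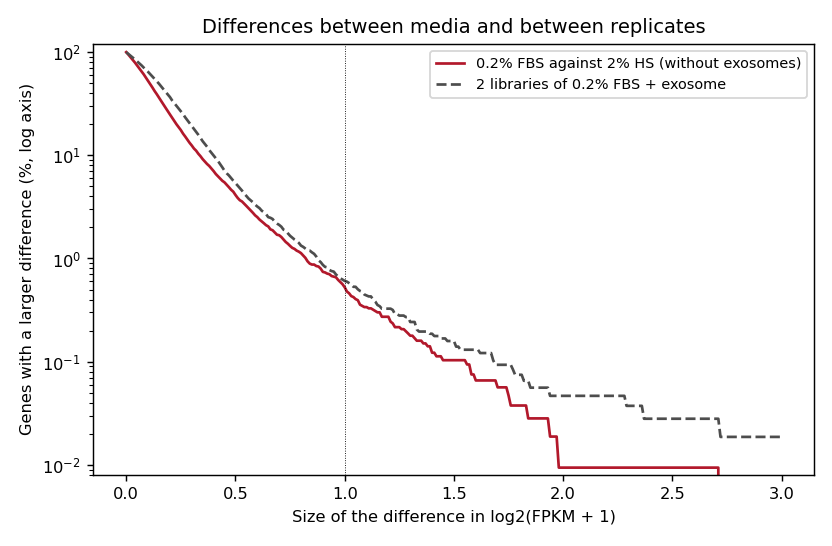
Percentage of genes (log axis) whose difference in log2(FPKM + 1) was larger than the size on the horizontal axis, for 0.2% FBS against 2% HS and for the 2 libraries of 0.2% FBS + exosome. The line of the replicate pair lies above that of the media over most of the range, with 0.606% of genes past 1.

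Among the 56 genes past 1, 53 differed less in the replicate pair than between the media, and 8 differed by more than 1 in the replicate pair as well. These 56 were chosen by the size of their difference between the media, so that count is a description. A limma fit with 1 mean per condition took its spread from the replicate pair alone, with 1 residual degree of freedom per gene. The fit moved each gene's variance toward a trend with level over all genes, with 7.31 prior degrees of freedom. Over 10651 genes it gave no adjusted p under 0.05 (0.0%). Before adjustment, 182 genes above 0 and 254 below had a p under 0.05 in limma. The lowest adjusted p in limma was 0.0648, reached by Plekhb1 and Tgm2, both lower in 0.2% FBS. The genes nearest to the filter at 1 FPKM were Kctd21 and Sigirr just inside and Lrp8 and Fam65b just outside, with differences of 0.05, −0.16, 0.14 and 0.47.

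Few genes were past 1, and lists of genes with a shared role were therefore described beside single genes. Members and lists were chosen with earlier results of these data known, so the counts and medians of lists are descriptions. A second threshold of 0.5, chosen after the values were seen, was passed upward by 198 genes (1.86%) and downward by 242 (2.27%), against 577 of the replicate pair (5.38%) in either direction. By sign alone, 46.3% of all genes lay above 0 and 53.7% below. Of 40 lists of genes and markers and 1 list added later, sterol synthesis and uptake had the highest median (0.58), and the interferon response (−0.58) and genes of the S, G2 and M phases (−0.49) the lowest among lists with at least 5 genes measured.

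**Figure D3:**
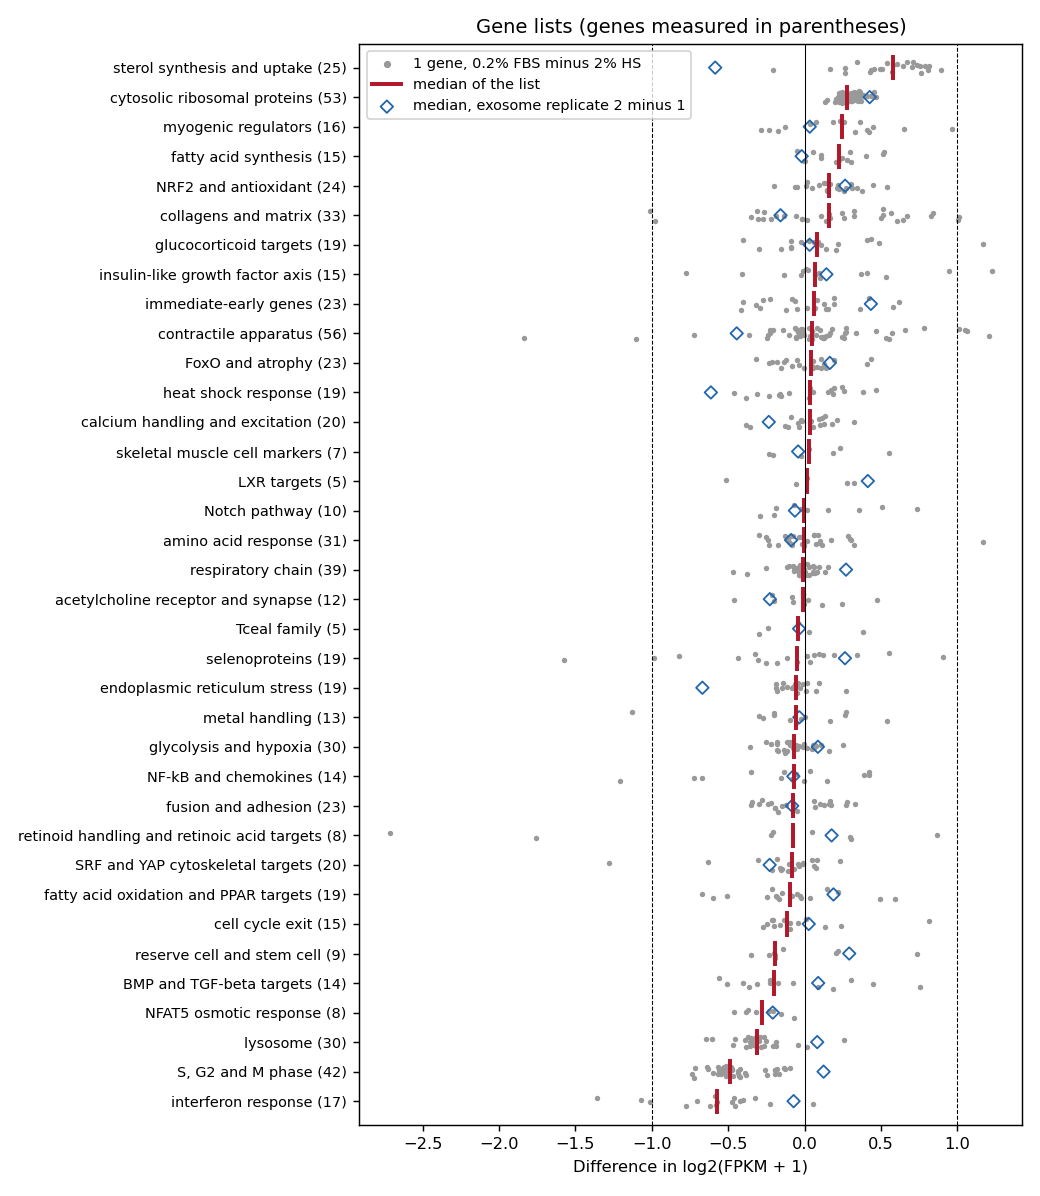
Differences in log2(FPKM + 1), 0.2% FBS minus 2% HS, for the lists with at least 5 genes measured. Grey points are genes, red bars list medians, and blue diamonds the median difference of the same genes between the exosome replicates, and the sterol list is at the top with a median of 0.58 while its diamond lies at −0.59.

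Markers of the muscle programme were read in both media. All 7 skeletal muscle markers passed the filter, and the sum of their levels was 6471 FPKM in 2% HS and 7561 FPKM in 0.2% FBS. Most of the gap between these sums was Actc1, the cardiac alpha-actin that young myotubes also make, which was the marker farthest from 0. It read 1311 FPKM in 10% FBS, 2320 in 2% HS, 2386 in 2% HS + exosome, 3401 in 0.2% FBS and 1394 and 855 in the exosome replicates, with a difference of 0.55 between the media and of −0.70 in the replicate pair. Myog, the regulator of terminal differentiation, read 512 FPKM in 10% FBS, 564 in 2% HS, 720 in 2% HS + exosome, 663 in 0.2% FBS and 350 and 401 in the exosome replicates. Its difference between the media was 0.23. Tmem8c, which encodes the fusion protein myomaker, read 987 FPKM in 2% HS and 1036 in 0.2% FBS, and Gm7325, which encodes its partner myomixer, read 279 and 313. Neither fusion gene differed by as much as 0.2. Ckm, the muscle creatine kinase, was at 847 and 734 FPKM (difference −0.21), and the fast myosin heavy chain Myh1 at 35.8 and 35.0 FPKM (−0.03).

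Of 56 contractile genes measured, 33 lay above 0 and 23 below (46.3% and 53.7% of all genes did), with a median of 0.05. By the threshold of 1, 4 were higher and 2 lower (0.235% and 0.291% of all genes were). Past 0.5 in size there were 9 above and 3 below (1.86% and 2.27% of all genes). The median of these genes in the replicate pair was −0.44, so the contractile list as a whole varied more between the exosome libraries than between the media. The differences past 1 were spread over a few myosin, actinin and tropomyosin genes. Myh8, the perinatal myosin heavy chain, read 13.2 FPKM in 2% HS and 31.8 in 0.2% FBS (1.21), with 9.88 in 10% FBS, 28.8 in 2% HS + exosome and 8.64 and 4.50 in the exosome replicates. Myh7, the slow myosin of type I fibres and heart, read 25.9 and 55.3 FPKM (1.07), and its neighbour Myh6, the alpha cardiac chain, 4.74 and 10.6 FPKM (1.01). Myh6 and Myh7 lie side by side on chromosome 14 and are close in sequence, so reads may have been shared between them. Actn2, which crosslinks actin at the Z disc, read 24.3 and 51.4 FPKM (1.05). For Myh7, Myh6 and Actn2 the 0.2% FBS library was the highest of the 6.

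Myl2, the slow and ventricular regulatory light chain, went the other way. It was under 1 FPKM in 0.2% FBS and passed the filter through its level in 2% HS. It read 0.470 FPKM in 10% FBS, 4.35 in 2% HS, 4.82 in 2% HS + exosome, 0.501 in 0.2% FBS and 0.131 and 0.410 in the exosome replicates, so that both 2% HS libraries stood above all 4 libraries in FBS. The difference between the media was −1.83 (limma adjusted p = 0.0906). Tpm3, the slow tropomyosin, read 322 FPKM in 2% HS and 150 in 0.2% FBS (−1.10), against 150 in 10% FBS, 261 in 2% HS + exosome and 131 and 137 in the exosome replicates. Tropomyosin genes are close copies with many transcript forms, and the split of reads among them is uncertain. Among the genes named here, Myh7 was higher and Myl2 and Tpm3 were lower in 0.2% FBS. Mb, the oxygen store myoglobin, was also lower, with 222 FPKM in 2% HS and 108 in 0.2% FBS (−1.04).

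**Figure D4:**
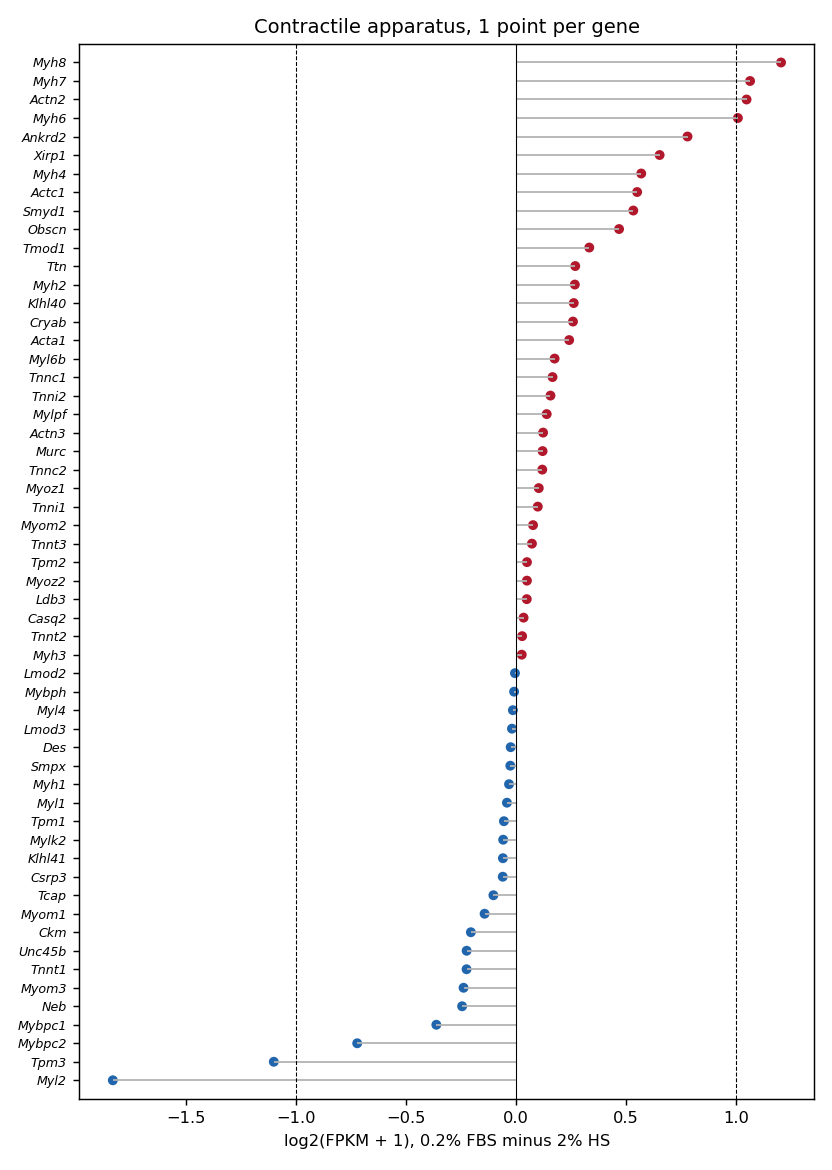
Difference in log2(FPKM + 1), 0.2% FBS minus 2% HS, for each of 56 contractile genes, ordered by value, with dashed lines at 1 and −1. Myh8, Myh7, Actn2 and Myh6 lie above 1 and Tpm3 and Myl2 below −1, and the others lie between these lines.

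Among 16 myogenic regulators the median was 0.25, with 12 above 0 and 4 below (46.3% and 53.7% of all genes) and none past 1. Vgll2, a cofactor of TEAD factors in muscle, read 1.30 FPKM in 2% HS and 3.49 in 0.2% FBS (0.97), and Mef2c, a partner of the MyoD family, 8.20 and 13.4 FPKM (0.65). Myod1 differed by 0.18 and Myf5 by −0.23. Cdkn1c, the p57 inhibitor of cyclin-dependent kinases, read 1.24 and 2.94 FPKM (0.81), whereas Cdkn1a (p21), which is far more abundant, read 1001 and 1009 FPKM (0.01). Tceal7 (X:136214779-136226100) and Tceal5 (X:136200948-136203876), the transcription elongation factor A-like genes named by the study, differed by 0.38 and 0.03. Tceal7 was at 58.9 FPKM in 2% HS and 77.1 in 0.2% FBS, and Tceal5 at 5.44 and 5.58 FPKM. Lists for calcium handling (20 genes), the acetylcholine receptor and synapse (12), fusion and adhesion (23) and Notch signalling (10) had medians of 0.04, −0.01, −0.08 and 0.00, and none of their genes was past 1. With the filter at 10 FPKM these medians were 0.04, −0.08, −0.14 and −0.11.

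Genes of DNA replication and mitosis lay below 0 as a list. All 42 genes of the S, G2 and M phases lay below 0, where 53.7% of all genes did, and 20 of them passed −0.5, where 2.27% of all genes did, although none passed −1. The range was −0.74 to −0.09 and the median −0.49. Cell cycle genes vary together, so 42 genes are not 42 independent observations of the medium. Their median in the replicate pair was 0.12, and 37 of 42 differed more between the media than in that pair, against 41.3% of all genes. Under a filter at 10 FPKM the median of the list was −0.34.

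Ccnb1, the cyclin that drives entry into mitosis, read 11.5 FPKM in 10% FBS, 9.88 in 2% HS, 6.45 in 2% HS + exosome, 5.58 in 0.2% FBS and 4.78 and 5.59 in the exosome replicates (difference between the media −0.73, limma adjusted p = 0.657). Plk1, a kinase of the mitotic spindle, read 7.11, 6.01, 3.88, 3.27, 3.38 and 4.54 FPKM in the same order of libraries (−0.72). For both genes the 2% HS library without exosomes lay nearest to the growing cells. Bub1, a kinase of the spindle checkpoint, read 3.41 FPKM in 2% HS and 1.64 in 0.2% FBS (−0.74), and Ube2c, which marks mitotic cyclins for degradation, 16.6 and 10.3 FPKM (−0.64). Rrm2, a subunit of ribonucleotide reductase, read 56.8 and 50.5 FPKM (−0.17), and the helicase subunit Mcm3 differed by −0.63. Of 15 genes of cell cycle exit, 11 lay below 0 (53.7% of all genes did) and none was past 1.

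Many mitotic promoters carry the cell cycle genes homology region, TTTGAA, at which repressor complexes are known to sit in quiescent cells. The letters TTTGAA were searched on both strands of the 250 bases before RefSeq start sites (GRCm38.p6). They occurred in 10 of the 35 cell cycle genes with a promoter in the table (28.6%). Counted by promoter window, of which a gene can have several, they lay in 10 of 38 windows of these genes (26.3%) and in 16.0% of all 32851 windows. The promoter of Cdk1 (11.4 FPKM in 2% HS and 7.45 in 0.2% FBS, −0.55), the kinase partner of Ccnb1, is shown as an example because it holds 2 matches, in capitals, at chr10:69352913-69353162 on the minus strand, written 5′ to 3′.
Cdk1: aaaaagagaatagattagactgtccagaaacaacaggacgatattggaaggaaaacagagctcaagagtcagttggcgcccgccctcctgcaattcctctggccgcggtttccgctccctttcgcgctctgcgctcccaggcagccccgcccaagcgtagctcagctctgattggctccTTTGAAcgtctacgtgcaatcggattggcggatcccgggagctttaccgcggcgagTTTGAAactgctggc
A match of 6 letters is frequent by its length alone, and it is a description of the sequence and not a site shown to be used in these cells.

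Genes of cholesterol synthesis and uptake were the list with the highest median in 0.2% FBS. Cells sense membrane cholesterol through SREBP2, which moves to the nucleus when sterols are scarce and binds sterol regulatory elements in front of these genes. Of 25 genes measured, 24 lay above 0 (46.3% of all genes did) and 16 passed 0.5 (1.86% of all genes did), with a median of 0.58, a highest value of 0.90 and none past 1. The summed level was 956 FPKM in 2% HS and 1448 in 0.2% FBS. The list also varied in the replicate pair, with a median of −0.59 in size similar to that between the media. Of its 25 genes, 13 differed more between the media than in the pair, against 41.3% of all genes.

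Hmgcs1, which makes the precursor HMG-CoA, read 47.1 FPKM in 10% FBS, 56.0 in 2% HS, 21.5 in 2% HS + exosome, 105 in 0.2% FBS and 55.8 and 30.3 in the exosome replicates. Its difference between the media was 0.90, with an adjusted p of 1.00 in limma, and its difference in the replicate pair was −0.86. Sqle, the squalene epoxidase, read 63.3 FPKM in 2% HS and 108 in 0.2% FBS (0.75), with 67.0 in 10% FBS, 31.4 in 2% HS + exosome and 91.3 and 54.6 in the exosome replicates. For both genes 0.2% FBS was the highest of the 6 libraries and 2% HS + exosome the lowest. The pathway was covered from early to late steps, with Mvd, a decarboxylase of the mevalonate branch, at 14.0 and 25.4 FPKM (0.81) and the late enzyme Nsdhl at 34.2 and 59.9 FPKM (0.79). Ebp, another late enzyme, was the exception with 58.7 and 50.6 FPKM (−0.21), and Srebf2, which encodes SREBP2 itself, read 87.3 and 105 FPKM (0.27).

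The sterol regulatory element was searched as TCACNCCAC on both strands of the same 250 bases. It was found in 1 of the 18 sterol genes with a promoter in the table (5.56%), which is 1 of their 21 windows (4.76%), and in 1.05% of all windows. That gene was Hmgcs1, whose promoter at chr13:119690101-119690350 on the plus strand is given with the match in capitals, starting 137 bases before the start site.
Hmgcs1: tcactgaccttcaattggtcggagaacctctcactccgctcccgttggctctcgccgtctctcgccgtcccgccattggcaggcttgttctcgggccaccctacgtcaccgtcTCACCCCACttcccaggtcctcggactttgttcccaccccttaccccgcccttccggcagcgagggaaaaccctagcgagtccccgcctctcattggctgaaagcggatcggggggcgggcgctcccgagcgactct
A promoter without these letters may hold other forms of the element, which were not searched.

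Other lipid genes followed the sterol list in part. Of 15 genes of fatty acid synthesis, 12 lay above 0 (46.3% of all genes did), with a median of 0.23 and none past 1. Highest were the desaturases Fads2 (37.3 FPKM in 2% HS and 53.8 in 0.2% FBS, 0.52) and Scd2 (396 and 566 FPKM, 0.52). Fatty acid oxidation and PPAR targets had a median of −0.10 over 19 genes. Plin2, which coats lipid droplets, read 69.5 and 43.2 FPKM (−0.67), the fatty acid transporter Cd36 7.71 and 4.74 FPKM (−0.60), and Cpt1a, the gate of mitochondrial import of fatty acids, 13.1 and 20.2 FPKM (0.59). The 5 measured targets of LXR, the receptor of oxysterols, had a median of 0.01, and of 0.28 under the filter at 10 FPKM. Ch25h, which makes 25-hydroxycholesterol and is also induced by interferon, was lower at 6.06 FPKM in 2% HS and 1.64 in 0.2% FBS (−1.42).

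Lpl, the lipase that frees fatty acids from lipoproteins, was among the genes with the largest difference upward. It read 30.2 FPKM in 10% FBS, 32.6 in 2% HS, 58.4 in 2% HS + exosome, 99.1 in 0.2% FBS and 54.9 and 112 in the exosome replicates, with a difference of 1.57 between the media and of 1.02 in the replicate pair. Lpl also marks adipocytes. Of 7 adipocyte markers, 3 passed the filter. Pparg read 3.06 and 1.88 FPKM (−0.50) and Cebpa 1.50 and 2.08 FPKM (0.30), while Adipoq and Cfd were listed at 0 in both media, Plin1 at 0 in 2% HS and 0.0326 FPKM in 0.2% FBS, and Fabp4 at 0.117 and 0.0615 FPKM. The summed level of this marker list, 37.3 FPKM in 2% HS and 103 FPKM in 0.2% FBS, was nearly all Lpl.

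Interferon-induced genes formed the list with the lowest median. Type I interferons signal through STAT transcription factors and IRF9, which bind the interferon-stimulated response element and switch on antiviral genes such as those for ISG15 and the IFIT proteins. Of 33 genes, 17 passed the filter. Of these 17, 16 lay below 0 (53.7% of all genes did), 9 passed −0.5 (2.27% of all genes did) and 3 passed −1 (0.291% did), with a median of −0.58. The median in the replicate pair was −0.07. In 16 of the 17 genes the difference was larger between the media than in that pair, against 41.3% of all genes. Of the 17, 5 were under 1 FPKM in 0.2% FBS and 0 in 2% HS, so these 5 entered through their level in 2% HS and the counts are a description. With a floor of 1 FPKM in place of the pseudocount, Oasl2 was at −0.90. Under the same setting, applied to the counts of this list after the data were seen, 11 genes passed −0.5 and 3 passed −1. The other 16 genes, among them Mx1, Rsad2 and Usp18, stayed under the filter. With a filter at 10 FPKM the median was −0.46.

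Isg15 (chr4:156199424-156200818), a ubiquitin-like modifier, read 3.34 FPKM in 10% FBS, 7.80 in 2% HS, 8.88 in 2% HS + exosome, 2.44 in 0.2% FBS and 6.23 and 7.82 in the exosome replicates. The 0.2% FBS library was the lowest of the 6, with a difference from 2% HS of −1.36 and an adjusted p of 0.155 in limma. Bst2, which tethers budding virus to the cell, read 11.5, 36.2, 34.8, 17.4, 29.9 and 22.5 FPKM in the same order (−1.01). Oasl2, an OAS-like antiviral protein, read 1.86 FPKM in 2% HS and 0.359 in 0.2% FBS (−1.07), and Ifit1 2.23 and 0.888 FPKM (−0.77). These 2 genes lie near the floor of the measurement. The signalling genes Irf7 (1.76 and 0.796 FPKM, −0.62) and Irf9 (4.26 and 2.79 FPKM, −0.47) also lay below 0. The abundant B2m, the light chain of MHC class I, read 588 and 445 FPKM (−0.40).

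Some genes in no list, named here because they passed 1 in either direction, are also known to be induced by interferon. Ifi27l2a read 32.1 FPKM in 2% HS and 11.6 in 0.2% FBS (−1.39), Apol9a 10.6 and 3.67 FPKM (−1.31) and Zbp1, a sensor of Z-form nucleic acid, 4.57 and 1.77 FPKM (−1.01). Ifitm1, which encodes a membrane protein, was higher in 0.2% FBS, with 4.72 and 11.5 FPKM (1.13). It differed by 0.75 in the replicate pair. Apol9a has a near-identical neighbour, Apol9b, and Ifi27l2a belongs to a family of similar copies, so their reads may be shared.

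The response element was searched as GAAA, any 2 bases and GAAA on both strands, with overlapping matches counted. It lay in 6 of the 14 interferon genes with a promoter in the table (42.9%), which is 6 of their 17 windows (35.3%), and in 2.98% of all windows. The list was built of genes known for this response, so the share describes the choice of genes. Among the genes with a match, Igtp lay just above 0 (0.06), and Stat2 (−0.32) and B2m (−0.40) lay below. The promoters of 3 members that lay below 0 are given with their matches in capitals: Isg15 at chr4:156200819-156201068 on the minus strand with 3 overlapping matches, Bst2 at chr8:71537473-71537722 on the minus strand with 2 overlapping matches, and Ifit1 at chr19:34640639-34640888 on the plus strand with 2 matches on its other strand.
Isg15: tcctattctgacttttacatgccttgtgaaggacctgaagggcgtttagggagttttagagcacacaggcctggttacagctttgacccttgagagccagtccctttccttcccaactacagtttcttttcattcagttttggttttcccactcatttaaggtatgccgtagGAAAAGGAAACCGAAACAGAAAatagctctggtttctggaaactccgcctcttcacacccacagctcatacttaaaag
Bst2: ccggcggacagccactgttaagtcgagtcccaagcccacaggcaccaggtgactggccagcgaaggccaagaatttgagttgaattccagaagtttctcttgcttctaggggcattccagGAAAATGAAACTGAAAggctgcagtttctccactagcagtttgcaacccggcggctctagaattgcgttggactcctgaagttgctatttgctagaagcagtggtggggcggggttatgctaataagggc
Ifit1: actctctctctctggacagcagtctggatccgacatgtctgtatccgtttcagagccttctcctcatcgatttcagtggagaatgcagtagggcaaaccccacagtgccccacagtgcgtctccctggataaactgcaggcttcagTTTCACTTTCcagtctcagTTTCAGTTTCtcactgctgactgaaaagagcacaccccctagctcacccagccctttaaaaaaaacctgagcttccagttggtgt
In Isg15 the matches begin 78 to 66 bases before the start site, in Ifit1 104 and 85 bases, and in Bst2 130 and 124 bases.

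Chemokines did not share a single direction. Of 14 genes of NF-kB and chemokines measured, 9 lay below 0 (53.7% of all genes did), and the median was −0.07. Ccl8 read 7.20 FPKM in 10% FBS, 19 in 2% HS, 22.3 in 2% HS + exosome, 7.68 in 0.2% FBS and 30.0 and 30.1 in the exosome replicates, with a difference between the media of −1.21. Cxcl12, the ligand of CXCR4, read 9.52 and 5.36 FPKM (−0.73) and Ccl2 36.5 and 22.5 FPKM (−0.67). The NF-kB inhibitor gene Nfkbia (0.42) and the neutrophil chemokine Cxcl5 (0.42) lay above 0. Ccl2 and Cxcl5 differed by −0.86 and 0.69 in the replicate pair, more in size than between the media. Only 4 of the 14 genes differed more between the media than in that pair, against 41.3% of all genes.

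**Figure D5:**
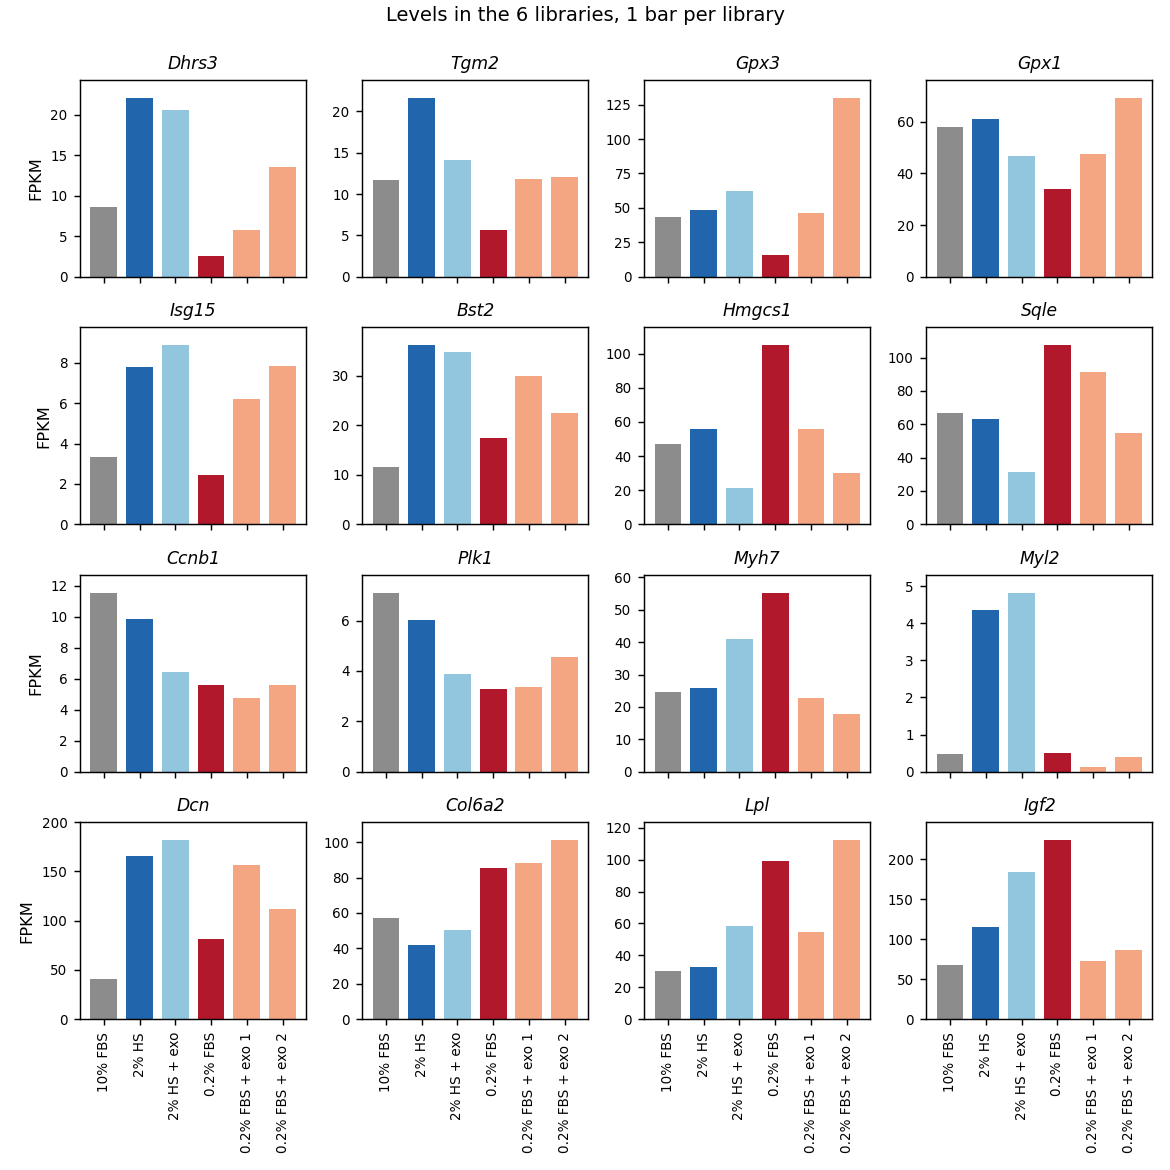
FPKM of 16 named genes in the 6 libraries, 1 bar per library and no error bars, since each bar is a single library. Dhrs3, Gpx3 and Isg15 are lowest in 0.2% FBS (2.52, 15.6 and 2.44 FPKM), and Hmgcs1 and Sqle are highest there (105 and 108 FPKM).

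The largest difference of the comparison was that of Dhrs3 (chr4:144892827-144928209), which encodes a reductase that turns retinaldehyde back into retinol and is induced by retinoic acid. Dhrs3 read 8.64 FPKM in 10% FBS, 22.1 in 2% HS, 20.6 in 2% HS + exosome, 2.52 in 0.2% FBS and 5.80 and 13.6 in the exosome replicates. The difference between the media was −2.72 (limma adjusted p = 0.155), against 1.10 in the replicate pair. Tgm2, transglutaminase 2, another target of retinoic acid, read 11.6, 21.7, 14.1, 5.70, 11.8 and 12.1 FPKM in the same order, with a difference of −1.76 and an adjusted p of 0.0648 in limma. For both genes 0.2% FBS was the lowest of the 6 libraries and 2% HS the highest.

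A list of 19 retinoid genes was drawn up after these values were seen, and it describes them without being evidence for a direction. Of these, 8 passed the filter, 4 above and 4 below 0, with a median of −0.08. Cyp26a1, which degrades retinoic acid, read 1.60 FPKM in 2% HS and 1.23 in 0.2% FBS (−0.22), the receptor gene Rarg 22.0 and 18.9 FPKM (−0.21), the binding protein gene Crabp2 47.0 and 48.7 FPKM (0.05) and Rarres2, the chemerin gene, 3.40 and 7.04 FPKM (0.87). Rarb was under the filter, with 0.114 and 0.0871 FPKM. The retinoid genes did not differ together.

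Selenoproteins carry selenocysteine, and the mRNAs of some of them are known to be lost when selenium is scarce, with Gpx1 and Selenoh among the most sensitive and Gpx4 and the thioredoxin reductases better kept. Whether selenium differed between the media was not tested. Of 19 selenoprotein genes measured, 10 lay below 0 and 9 above (53.7% and 46.3% of all genes did). Their median was −0.05 (−0.18 under the filter at 10 FPKM), beside 0.26 in the replicate pair. The 4 with the lowest values were Gpx3, Selenoh, Gpx1 and Selenow. Gpx3, the secreted glutathione peroxidase, read 43.4 FPKM in 10% FBS, 48.4 in 2% HS, 62.4 in 2% HS + exosome, 15.6 in 0.2% FBS and 46.4 and 130 in the exosome replicates. Its difference between the media was −1.58, close in size to that in the replicate pair (1.47). Gpx1 read 58.1, 60.9, 46.6, 34.0, 47.5 and 69.3 FPKM in the same order (−0.82), and Selenoh, listed as 2700094K13Rik, 15.8 FPKM in 2% HS and 7.47 in 0.2% FBS (−0.99). For Gpx3, Gpx1, Selenoh and Selenow, listed as Sepw1 (60.4 and 44.3 FPKM, −0.44), 0.2% FBS was the lowest of the 6 libraries. In the replicate pair Gpx1 and Selenoh differed by 0.53 and 0.55.

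Other selenoproteins differed little or in the other direction. The phospholipid peroxidase Gpx4 read 461 and 407 FPKM (−0.18) and the thioredoxin reductase Txnrd1 80.2 and 82.4 FPKM (0.04). Dio2, the deiodinase that makes active thyroid hormone, read 9.77 and 19.2 FPKM (0.91), and Txnrd3 3.82 and 6.08 FPKM (0.55). Dio2 differed by 0.67 in the replicate pair. Of 24 NRF2 targets and antioxidant genes, 21 lay above 0 (46.3% of all genes did), with a median of 0.16 beside 0.26 in the replicate pair. The heme oxygenase gene Hmox1 was farthest from 0 at 49.3 and 72.2 FPKM (0.54). Among 13 genes of metal handling the median was −0.06. Cp, which encodes the copper-binding ferroxidase ceruloplasmin, was lower at 7.77 and 3.00 FPKM (−1.13), and the metallothioneins Mt1 and Mt2 differed by −0.20 and −0.30.

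Of 33 genes of collagens and matrix, 20 lay above 0 and 13 below (46.3% and 53.7% of all genes did), with a median of 0.16. Of these 33, 10 passed 0.5 and 2 passed −0.5 (1.86% and 2.27% of all genes did). Their median in the replicate pair was −0.16. In 19 of the 33 the difference was larger between the media than in that pair, against 41.3% of all genes. The chains of collagen VI, a beaded filament of the muscle matrix, lay together above 0, with Col6a2 at 42.2 FPKM in 2% HS and 85.6 in 0.2% FBS (1.00), Col6a1 at 109 and 195 FPKM (0.83) and Col6a3 at 31.7 and 48.8 FPKM (0.61). Col6a2 read 57.1 FPKM in 10% FBS, 50.5 in 2% HS + exosome and 88.1 and 101 in the exosome replicates, so that both 2% HS libraries lay below all 4 libraries in FBS. Col8a1 (4.59 and 10.3 FPKM, 1.01), Col1a1, a chain of fibrillar collagen I (49.0 and 88.4 FPKM, 0.84), and Fbn1, fibrillin 1 (43.7 and 70.2 FPKM, 0.67), also lay above 0.

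Dcn, which encodes the small proteoglycan decorin, was lower. It read 41.1 FPKM in 10% FBS, 165 in 2% HS, 182 in 2% HS + exosome, 81.6 in 0.2% FBS and 156 and 112 in the exosome replicates (difference between the media −1.01). Mmp13, a collagenase, read 5.49 FPKM in 2% HS and 2.30 in 0.2% FBS (−0.98). Genes past 1 that were in no list, and were named for that size, include some that encode secreted or matrix proteins. Svep1 (2.70 and 9.09 FPKM, 1.45), Thbs2, thrombospondin 2 (18.1 and 43.0 FPKM, 1.20), the serine protease gene Htra1 (58.5 and 125 FPKM, 1.08) and Fbln1, fibulin 1 (1.57 and 4.15 FPKM, 1.01), were higher. Fbln1 differed by 1.14 in the replicate pair, more than between the media. Svep1 and Htra1 differed by 0.57 and −0.68 in that pair. Ctgf, a matricellular protein and target of YAP, was lower at 34.4 and 13.6 FPKM (−1.28), whereas Cyr61, of the same family, read 136 and 144 FPKM (0.08). The 20 genes of SRF and YAP targets had a median of −0.09.

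In the insulin-like growth factor axis, which drives both growth and differentiation of myoblasts, the median was 0.07. Of its 15 genes measured, 10 lay above 0 (46.3% of all genes did). Igf2 (chr7:142650766-142666816), the ligand that differentiating myoblasts secrete, read 67.6 FPKM in 10% FBS, 116 in 2% HS, 184 in 2% HS + exosome, 224 in 0.2% FBS and 73.1 and 86.9 in the exosome replicates (0.95). The binding protein genes went in opposite directions. Igfbp4 read 1.34 FPKM in 2% HS and 4.48 in 0.2% FBS (1.23), and the far more abundant Igfbp5 976 and 571 FPKM (−0.77). Igfbp5 differed by 0.68 in the replicate pair. Igf1 (0.815 and 1.62 FPKM, 0.53) and the receptor gene Igf1r (4.80 and 6.48 FPKM, 0.37) lay above 0.

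Ribosomal protein genes lay above 0 and most lysosomal genes below. All 53 genes of the cytosolic ribosome lay above 0 (46.3% of all genes did). They lay between 0.13 and 0.47, with a median of 0.28 and none past 0.5. The same genes differed by a median of 0.43 in the replicate pair, and 2 of 53 differed more between the media than in that pair, so this shift was within the spread of the replicated condition. Rpl13a, which the study used as its PCR reference, was among them, at 529 FPKM in 2% HS and 618 in 0.2% FBS (0.22). Of 30 lysosomal genes, 28 lay below 0 (53.7% of all genes did), with a median of −0.31 beside 0.08 in the replicate pair. In 27 of them the difference was larger between the media than in that pair, against 41.3% of all genes. The protease gene Ctsb read 368 and 242 FPKM (−0.60) and was lowest in 0.2% FBS among the 6 libraries. Tfeb, the transcription factor known for driving lysosomal genes, read 4.58 and 5.66 FPKM (0.26).

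Most other lists of stress and metabolic genes had medians near 0. All 8 measured genes of the NFAT5 response to osmotic stress lay below 0 (53.7% of all genes did). Their median was −0.28, beside −0.21 in the replicate pair. Medians of the heat shock response (0.04), endoplasmic reticulum stress (−0.06), the amino acid response (0.00), glycolysis and hypoxia (−0.07), the respiratory chain (−0.01) and FoxO and atrophy genes (0.04) were within 0.1 of 0. In the replicate pair the heat shock median was −0.61 and that of endoplasmic reticulum stress −0.67. Glucocorticoid targets (0.08) and immediate-early genes (0.06) were also near 0, and BMP and TGF-beta targets (−0.20) and reserve cell and stem cell genes (−0.19) lay somewhat below. The median of the BMP and TGF-beta targets was −0.07 under the filter at 10 FPKM. Among these lists, Cebpb, a transcription factor of stress and of adipogenesis, was past 1. It read 27.4 FPKM in 10% FBS, 13.7 in 2% HS, 23.3 in 2% HS + exosome, 32.1 in 0.2% FBS and 45.4 and 38.3 in the exosome replicates (1.16), with 2% HS the lowest of the 6.

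Several of the largest differences belonged to genes outside every list. Dbh, which encodes the dopamine beta-hydroxylase of noradrenaline synthesis, had the largest difference upward, with 2.77 FPKM in 10% FBS, 0.507 in 2% HS, 1.23 in 2% HS + exosome, 4.78 in 0.2% FBS and 1.73 and 2.65 in the exosome replicates (1.94, limma adjusted p = 0.0906). Pi15, a secreted protease inhibitor, read 1.43 FPKM in 2% HS and 6.85 in 0.2% FBS (1.69), and differed by 0.78 in the replicate pair. The class 3 semaphorins, secreted guidance cues, differed in opposite directions, with Sema3g at 1.96 and 6.81 FPKM (1.40) and Sema3c at 19.5 and 7.86 FPKM (−1.21). Akr1c14, an aldo-keto reductase of steroids (0.643 and 3.27 FPKM, 1.38), Tmem86a (6.97 and 18.6 FPKM, 1.30), the adhesion gene Adam23 (2.82 and 8.15 FPKM, 1.26), Sprr2k (6.29 and 15.4 FPKM, 1.17) and Nrep (1.37 and 4.31 FPKM, 1.16) completed the 15 largest with the genes named above. Sprr2k differed by −1.25 in the replicate pair, more in size than between the media. In that pair Nrep differed by 0.89, Adam23 by 0.68, Sema3g by −0.64 and Tmem86a by −0.61. Also higher in 0.2% FBS were the glutamate transporter gene Slc1a3 (1.06, and 0.68 in the replicate pair) and Gpm6b (1.05). So was the prostaglandin-degrading enzyme gene Hpgd (0.373 and 1.85 FPKM, 1.05). Dbh, Akr1c14 and Hpgd were under 1 FPKM in 2% HS, so they passed the filter through their level in 0.2% FBS.

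In the other direction, F11r, which encodes the junctional adhesion molecule A, read 1.51 FPKM in 10% FBS, 5.66 in 2% HS, 3.74 in 2% HS + exosome, 0.688 in 0.2% FBS and 2.05 and 0.945 in the exosome replicates (−1.98). Plekhb1 read 5.02, 13.6, 9.52, 3.34, 3.93 and 3.66 FPKM in the same order (−1.75), and both 2% HS libraries lay above the other 4. Serpinb9g, one of a cluster of similar serpin genes whose reads may be shared, read 6.24 FPKM in 2% HS and 1.40 in 0.2% FBS (−1.59). The chymotrypsinogen gene Ctrb1 (66.7 and 22.1 FPKM, −1.55), Ly6a, the Sca-1 antigen (41.2 and 15.9 FPKM, −1.32), C1qtnf3 (444 and 183 FPKM, −1.27) and the water channel gene Aqp5 (103 and 43.6 FPKM, −1.23) were each lower by the threshold, and Ctrb1, Ly6a and C1qtnf3 differed by −1.02, 1.50 and −1.06 in the replicate pair. Further genes past −1 were Atp9a (−1.15), 5730508B09Rik (−1.07), B4galt4 (−1.06), Ptplb (−1.03) and Cpne8 (−1.02). F11r was under 1 FPKM in 0.2% FBS and passed the filter through its level in 2% HS.

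Markers of other cell types were mostly at or near the floor in both media. None of the 4 endothelial markers passed the filter, and their sum was 0.110 FPKM in 2% HS and 0.145 in 0.2% FBS. Of 6 osteoblast markers, Runx2 alone passed (4.07 and 4.21 FPKM), and Bglap, Alpl and Ibsp were each under 1 FPKM. Of 5 leukocyte markers, Cd68 passed (1.26 and 1.63 FPKM), while Ptprc, which defines leukocytes, and Emr1 were listed at 0 in both media. Of the blood and liver transcripts, Alb, Apoa1 and Hbb-b1 were listed at 0 in both libraries, and Ppbp read 2.81 and 3.42 FPKM (0.21).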

How the data were processed

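Total RNA of C2C12 cells was made into stranded mRNA libraries and sequenced as single-end reads, 1 library per condition except 0.2% FBS + exosome (2). The authors trimmed reads with cutadapt 1.9.1, mapped them to mm10 with TopHat2 2.1.0 and deposited FPKM values from Cufflinks, scaled to transcript length and mapped reads, which correct for length and depth but not for composition. Cufflinks divides reads among similar transcripts. FPKM are not counts, so no count model was used. Some names had been turned into dates by a spreadsheet and were not matched. No column of per-sample values was left unused (0 columns).

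Differences were taken on log2(FPKM + 1) where the mean of both libraries reached 1 FPKM. Named genes were the 15 largest in each direction, all list members past 1, the 4 largest of each list, and Tceal5, Tceal7, Myog, Tmem8c, Myh1, Ckm and Rpl13a. A few of them are not reported here. Members and lists were chosen with earlier results of these data known. The alternative limma 3.58.1 fit (R 4.3.3) was tested on simulated data: of 200 genes changed, it called 99 of 100 at a log2 size of 2 and 76 of 100 at a size of 1, and of its 188 calls 175 were changed genes. The threshold of 1 called 162 genes, of which 156 were changed. The simulated noise was independent between genes and of equal size among genes of similar level, which real libraries need not be. In the data, 65 genes were past 1 between the 2 libraries of 0.2% FBS + exosome. The simulated rates therefore do not carry over to the data. Positions are from GENCODE (mm10), promoters from RefSeq (GRCm38.p6). Other pseudocounts, filters and scalings were tried. Tables were handled with pandas 2.3.3. Depth was inferred by fitting low FPKM to whole reads with an assumed fragment of 200 bases, and 76.5% and 74.3% of low values were within 0.1 of a whole read (20% if spread evenly).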

Additional observations from a re-analysis of the deposited data

How the results depend on the processing

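No paired analysis was possible because each medium has 1 library and the groups share no pairing. For the same reason neither medium could be left out in turn. The counts past 1, 25 higher and 31 lower in 0.2% FBS and 65 in the replicate pair, became 58, 64 and 135 with a pseudocount of 0.1, and 53, 58 and 124 with values below 1 FPKM raised to 1. A filter at 10 FPKM left 10 higher and 16 lower, since fewer genes were tested. The threshold of 0.5, added after the data were seen, gave 198, 242 and 577. The limma fit called 0 higher and 0 lower. Scaling to a common 75th percentile or by the median ratio gave 28 higher and 31 or 30 lower. All 56 genes kept their sign with a pseudocount of 0.1, with low values raised to 1 and with 75th percentile scaling, and 56, 54 and 55 of them were still past 1. No median of the 40 lists with a gene measured changed sign with a pseudocount of 0.1, 3 did under each scaling (none past 0.0077 in size), and 1 of 37 did under the filter at 10 FPKM. Depth limits genes near 1 FPKM, where counting alone gives a transcript of 1 kb a standard error of 0.116 (2% HS) and 0.119 (0.2% FBS) on the scale of log2(FPKM + 1).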
